A study of Mus musculus with 3 samples.

Results

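Secreted proteins of the gland lumen that take part in host defence were followed through the cells of the developing mouse prostate. Their genes are *Wfdc2*, *Wfdc3*, *Wfdc15b*, *Defb1*, *Pigr*, *Cxcl15*, *Cxcl17* and *Lcn2*, which are 8 of the 9781 gene rows used. They were chosen by name as secreted defence proteins of gland epithelium after levels of genes in these same cells had been seen, so the levels below are a description and no test was run on them. Single cell RNA-seq libraries came from 3 groups of normal mouse tissue, 1 library each, namely E18.5 urogenital sinus of males (UGS, whose epithelium buds to form the prostate), prostate at P14 and prostate at P35. The mice were of mixed C57BL/6 and 129S1/SvImJ background. No allele, treatment or number of pooled animals is given for these samples in the labels. Cells of all 3 libraries sit in a single table whose barcodes end in 1, 2 or 3. The labels hold no key from endings to tissues, so the cells are described as barcode sets 1, 2 and 3 and ages were not compared. A row for the transgene *EGFP* is also present. It led a cluster of 478 cells, all of set 1, when cells were clustered without integration of the sets.

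Glands that open to the outside line their ducts with epithelium that secretes antiproteases, antimicrobial peptides and chemokines into the lumen. WFDC proteins carry the whey acidic protein fold and many of them inhibit proteases. Beta-defensins are small cationic peptides that damage microbial membranes, lipocalin 2 (*Lcn2*) binds the siderophores with which bacteria take up iron, and the polymeric immunoglobulin receptor (*Pigr*) carries IgA across the epithelium into the secretion. Prostate epithelium is made of secretory luminal cells over a layer of basal cells and joins the urothelium of the urethra.

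Of the genes, 3 lie in the WFDC gene cluster on chromosome 2. In GRCm38.p6, the assembly of mm10, *Wfdc15b* spans chr2:164214454-164221663, *Wfdc2* spans chr2:164562715-164568510 and *Wfdc3* spans chr2:164731226-164745994, so that their outer ends are 531.5 kb apart. *Lcn2* is on the same chromosome at chr2:32384637-32387739. The others are *Pigr* at chr1:130826684-130852249, *Cxcl15* at chr5:90794534-90803067, *Cxcl17* at chr7:25400053-25412886 and *Defb1* at chr8:21776555-21795185. The 250 bases before the transcript start are printed for the 3 WFDC genes and for *Lcn2* and *Cxcl15*, because the levels described below set the 3 neighbours apart from one another while *Lcn2* accompanied *Wfdc15b* and *Cxcl15* accompanied *Wfdc2*. They are RefSeq sequences of that assembly, read 5′ to 3′ on the strand of the gene, from chr2:164562465-164562714 (plus strand), chr2:164743268-164743517 (minus strand), chr2:164221664-164221913 (minus strand), chr2:32387740-32387989 (minus strand) and chr5:90794284-90794533 (plus strand). The window of *Wfdc3* precedes a transcript that starts inside the span given for the gene. Capitals mark a match, on either strand, to 1 of 4 short motifs described after them.
Wfdc2: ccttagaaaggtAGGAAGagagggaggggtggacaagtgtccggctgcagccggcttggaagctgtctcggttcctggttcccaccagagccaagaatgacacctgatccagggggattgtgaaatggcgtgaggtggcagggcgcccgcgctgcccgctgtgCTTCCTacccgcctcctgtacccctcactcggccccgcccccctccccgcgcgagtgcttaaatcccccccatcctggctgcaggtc
Wfdc3: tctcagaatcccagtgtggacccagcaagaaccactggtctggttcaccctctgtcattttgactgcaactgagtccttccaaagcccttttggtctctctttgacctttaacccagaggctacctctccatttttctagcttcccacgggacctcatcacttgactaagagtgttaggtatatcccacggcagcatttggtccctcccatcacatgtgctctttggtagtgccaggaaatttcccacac
Wfdc15b: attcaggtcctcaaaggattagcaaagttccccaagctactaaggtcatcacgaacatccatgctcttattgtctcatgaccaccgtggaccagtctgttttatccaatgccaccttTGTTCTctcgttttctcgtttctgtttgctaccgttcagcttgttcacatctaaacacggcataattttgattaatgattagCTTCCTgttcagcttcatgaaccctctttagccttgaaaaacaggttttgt
Lcn2: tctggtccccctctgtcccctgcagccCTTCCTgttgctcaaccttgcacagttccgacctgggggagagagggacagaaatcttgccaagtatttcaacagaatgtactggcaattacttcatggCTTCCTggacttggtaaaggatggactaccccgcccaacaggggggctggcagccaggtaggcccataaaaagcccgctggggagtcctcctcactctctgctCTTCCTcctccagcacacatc
Cxcl15: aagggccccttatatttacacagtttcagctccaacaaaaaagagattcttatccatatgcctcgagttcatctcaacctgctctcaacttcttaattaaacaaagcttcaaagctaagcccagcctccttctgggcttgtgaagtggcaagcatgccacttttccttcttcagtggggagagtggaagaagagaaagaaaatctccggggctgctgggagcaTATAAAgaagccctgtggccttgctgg

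The motifs were TATAAA (the TATA box), AGAACA (an arm of the steroid receptor site), AGGAAG (the core of many ETS factor sites) and TGTTTAC (a forkhead factor site), none of which overlapped another in these windows. Among 32851 such windows, 12.4% held TATAAA, 16.1% held AGAACA, 29.5% held AGGAAG and 3.17% held TGTTTAC. Upstream of *Lcn2* there were 3 matches to AGGAAG, all on the opposite strand, starting 223, 124 and 21 bases before the transcript start. *Wfdc2* had AGGAAG on both strands (238 and 87 bases before the start), and *Wfdc15b* had AGAACA and AGGAAG on the opposite strand (133 and 51 bases before it). The window of *Cxcl15* held TATAAA 27 bases before the start, and that of *Wfdc3* held none of the 4. Of the 8 genes, 6 had a window in the table used, and the remaining window, of *Pigr*, held AGAACA 114 bases before the start. A match of letters is a description of the sequence and not a bound site.

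The sets were unequal in size and depth. Set 1 held 766 cells with a median of 19357 UMIs (unique molecular identifiers, which count captured RNA molecules), set 2 held 5350 cells with a median of 1738, and set 3 held 8457 cells with a median of 1788, of which 8360 with at least 200 genes were kept. Set 2 and set 3 had 13 barcodes in common and set 1 and set 2 had 1. Of each set's UMIs, 49.4% to 52.7% fell in the rows used. Levels are given as CPM, which is the number of UMIs of a gene in every 1000000 UMIs of the cells named, followed by a 95% interval in parentheses that covers counting error only, as cells of 1 library are not replicates.

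Cells were clustered without the 8 genes, and the 4731 cells of clusters with epithelial markers were clustered again into 10 clusters. Clusters 0 and 2 were basal-like by markers such as *Lamb3*, *Dst*, *Pdpn* and *Lgals7*, with 746 cells in set 2 and 1545 in set 3. Clusters 1 and 5 were luminal-like by *Cldn3*, *Tspan8*, *Tspan1*, *Dpp4* and *Slc45a3*. Cluster 1 had 50, 284 and 613 cells in sets 1, 2 and 3, and cluster 5 had 0, 26 and 171. Cluster 6 was urothelium-like by uroplakin genes such as *Upk1a*, with 109, 8 and 31 cells, although the muscle regulators *Myod1*, *Msc* and *Myf5* were also among its 10 leading genes and it carried 2 smooth muscle markers. When all cells were clustered together, the urothelium-like cluster had only 25 cells of set 1, and 44 others lay in an epithelial cluster led by *Myod1*. Set 1 had no basal-like cell, and its luminal-like cells went partly against their name, with *Upk1a* at 967 CPM in cluster 1 and 608 in cluster 6. In set 3 the same marker stood at 64.2 and 1184 CPM. The keratin genes *Krt5*, *Krt8* and *Krt18* were not analysed here, so the names rest on other markers.

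Cluster 8 was left unnamed and is counted in neither class, as its 10 leading genes held the leukocyte marker *Cd52* and no luminal marker. It had 1, 25 and 61 cells, was led by *Folr1* and *Cd52*, and carried 8 luminal markers, among them *Cldn3*, *Prom1*, *Hpn*, *Trpv6* and *Steap4*. *Cd52*, best known from lymphocytes and the male genital tract, stood there at 4141 CPM in set 2 and 2558 in set 3 and made up nearly all of the summed leukocyte markers, at 4168 and 2565 CPM. Of 14 leukocyte markers 11 and 8 were at 0 in these sets, and the defining one, *Ptprc*, had 0 UMIs in the cluster.

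As a group the secretory genes were epithelial. An increase was called where the level was at least 4-fold higher, in genes with at least 20 UMIs over both sides and sides with at least 20 cells. In epithelium-like cells without cluster 8, against all non-epithelial cells, 4 of the 5 genes that passed this minimum in set 1 were called higher, 6 of 6 in set 2 and 8 of 8 in set 3. These cells include the unnamed clusters 3, 4, 7 and 9. Of them cluster 3, with 700 cells, carried 8 fibroblast and 6 smooth muscle markers beside 5 basal ones, with smooth muscle markers summing to 6325 and 5077 CPM in sets 2 and 3, and cluster 7, with 109 cells of set 2, carried 5 and 3 and no marker of an epithelial class. Over all rows that passed the minimum the share called higher was 6.04% of 7915, 5.09% of 6930 and 5.78% of 7572. The median log2 ratio of the genes that passed was 6.60, 3.80 and 5.58 in the 3 sets, beside -0.24, -0.14 and -0.07 over all rows. Since these genes were listed as products of gland epithelium, the direction comes with the choice. The exception was *Lcn2* in set 1, which was lower in epithelium-like cells (share called lower among all rows 16.5%). That call rested on 2 leukocyte-like cells, which held 130 of the gene's 133 UMIs, and after thinning to 900 UMIs the log2 ratio was -0.995. Among non-epithelial cells of set 3, with a median of 1462 UMIs, the share with a UMI ran from 0.0372% for *Pigr* to 1.71% for *Defb1*, which is the background of the shares given below. When cells were instead classed one by one from summed markers, *Wfdc15b* had log2 ratios of 1.97, -2.35 and -1.48 in sets 1, 2 and 3, *Lcn2* 0.55 and -0.25 in sets 2 and 3, and *Cxcl15* 1.65 in set 1. After thinning to 900 UMIs the calls of *Wfdc15b* were lost in sets 1, 2 and 3 and those of *Defb1* in sets 1 and 2, with 1.88, 1.87 and 1.63 for *Wfdc15b* and 1.88 and 1.74 for *Defb1*. *Cxcl15* then had too few UMIs for a call in sets 1 and 2, with 3.75 and 3.36. Within the epithelium the 8 genes did not share a pattern, and the following paragraphs take them by role.

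**Figure D1:**
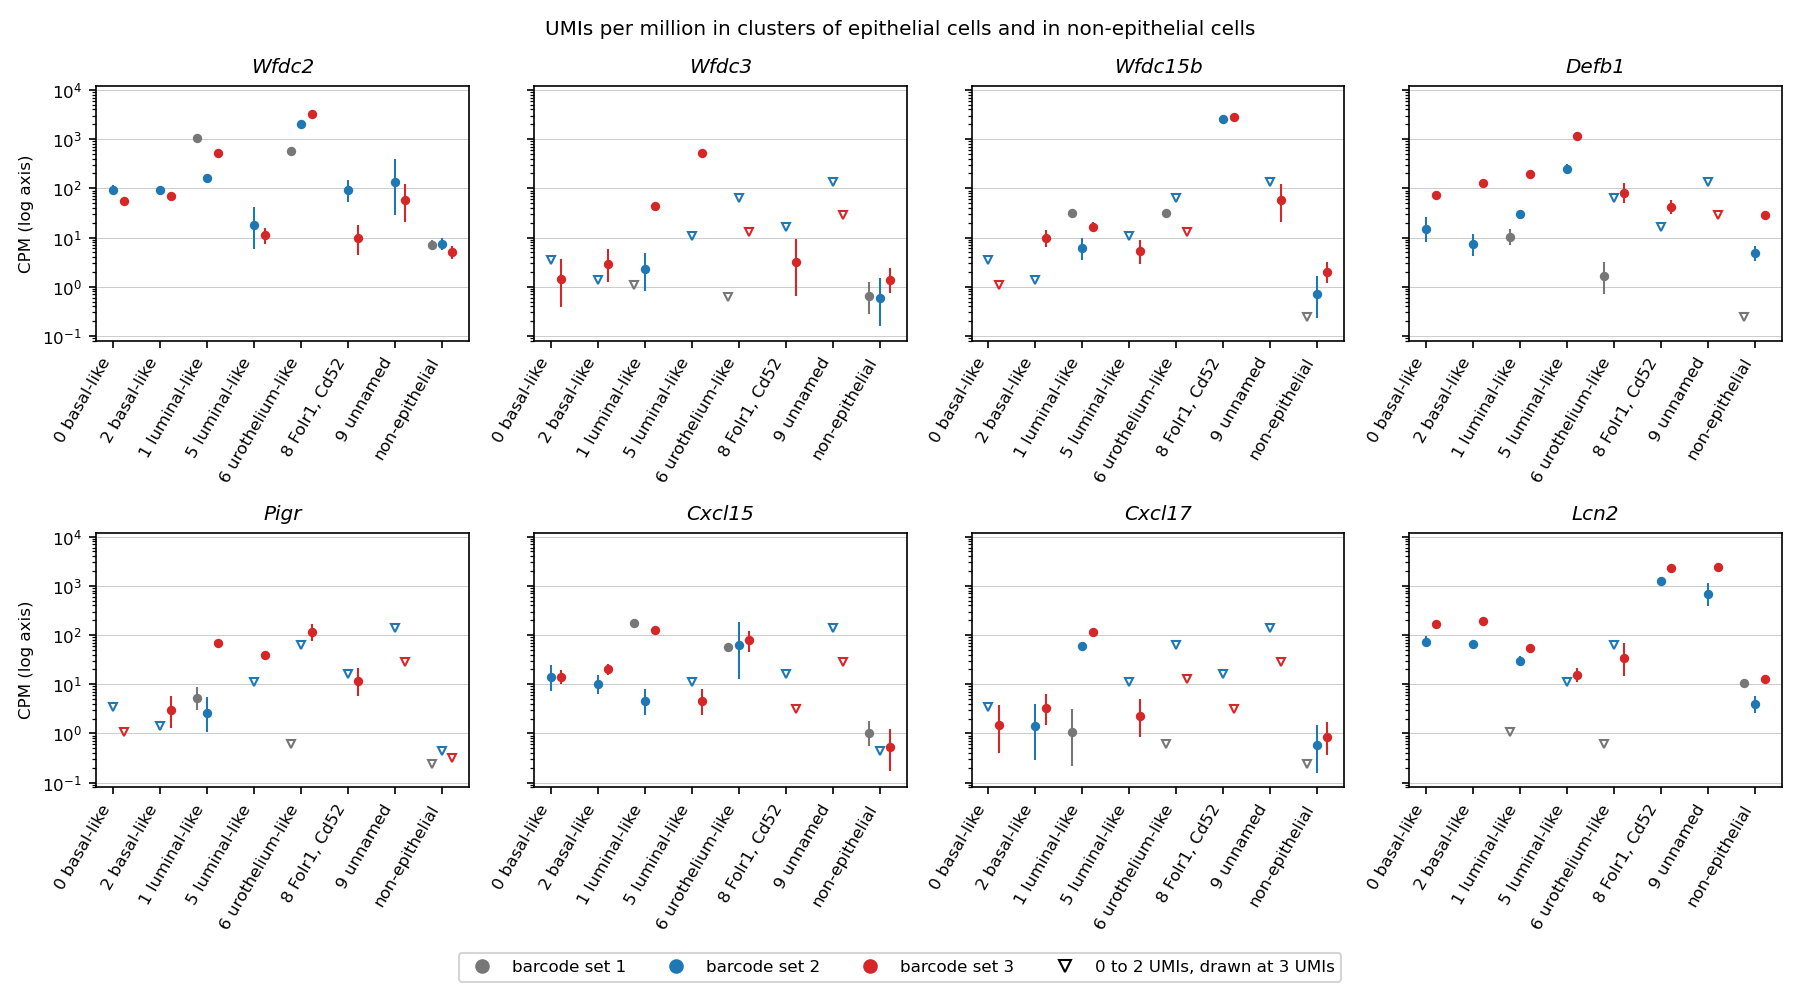
Level of each gene by cluster and barcode set, as CPM on a log axis, with bars for exact 95% Poisson intervals of the summed UMIs. Triangles stand for sums of 0 to 2 UMIs and are drawn at the level of 3 UMIs. *Wfdc15b* of sets 2 and 3 peaks in cluster 8, *Wfdc3* and *Defb1* in cluster 5 of set 3, and *Wfdc2* in clusters 1 and 6.

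*Wfdc2*, a secreted WFDC protein of airway and genital tract epithelium, was found in every named class and was high in luminal-like cluster 1 and urothelium-like cluster 6. Its level in cluster 1 was 1067 CPM (1029 to 1106) in set 1, 165 CPM (150.0 to 181) in set 2 and 518 CPM (499 to 537) in set 3. A UMI of *Wfdc2* was found in 100% of the 50 cells of set 1, 41.2% in set 2 and 42.7% in set 3, while 0.446% of the non-epithelial cells of set 3 had one, at median depths of 6029 and 1462 UMIs. After each cell was thinned to 900 UMIs these shares of set 3 were 23.2% and 0.254%. In cluster 1 of sets 1 and 2, with median depths of 50249 and 8908 UMIs, the thinned shares were 52% and 11%. The urothelium-like cluster 6 was richer in *Wfdc2* than cluster 1 in sets 2 and 3 and poorer in set 1, with 586 CPM in set 1, 2053 in the 8 cells of set 2 and 3215 in the 31 cells of set 3. Basal-like clusters 0 and 2 held 93.8 and 92.4 CPM in set 2 and 54.1 and 70.2 in set 3. The second luminal-like cluster was nearly without it, at 18.3 CPM in set 2 and 11 in set 3, close to the 7.53 and 4.98 of non-epithelial cells.

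*Wfdc3*, its neighbour 162.7 kb away, had the opposite distribution between the luminal-like clusters of set 3. It stood at 526 CPM (499 to 554) in cluster 5, where 73.7% (66.4 to 80.1) of 171 cells had a UMI, and at 44 CPM (38.6 to 50) in cluster 1. Elsewhere in set 3 it stood at 23.8 CPM in the unnamed cluster 3 and at or below 3.19 in every other cluster of the epithelium, beside 1.38 in non-epithelial cells. In set 2 the 26 cells of cluster 5 had 1 UMI, at 3.65 CPM (0.0924 to 20.3), and in set 1, which had no cell of cluster 5, cluster 1 had 1. In sets 1 and 2 no cluster of the epithelium held more than 3.65 CPM of *Wfdc3*. Of all UMIs of *Wfdc3* in set 3, 81.2% lay in cluster 5, which held 2.05% of the cells.

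*Defb1*, a beta-defensin made by many epithelia, was highest in the same cluster. Its level in cluster 5 was 248 CPM (193 to 315) in set 2 and 1151 CPM (1110.1 to 1192) in set 3, with a UMI in 15 of 26 and 170 of 171 cells. In contrast to *Wfdc3*, it was high there in both sets. Cluster 1 followed with 10.3, 29.7 and 199 CPM in sets 1, 2 and 3, and basal-like cells of set 3 had 73.3 CPM in cluster 0 and 128 in cluster 2. Outside the epithelium *Defb1* was at 0 in set 1, 4.78 CPM in set 2 and 28.9 in set 3. The last value came largely from a cluster led by muscle genes such as *Actg2*, with 60.7 CPM and 215 UMIs in 58 cells, 53 of them in 1 cell, while fibroblast-like cells of set 3 had 6.35 CPM. Of those 58 cells, 54 had a UMI of *Actg2* and 0 had one of *Cldn3*, while *Cldn4* was found in 1 and *Prr9* in 2, at 13.4 CPM of *Prr9* beside 3.53 in the rest of the cluster. Cells with *Defb1* were deeper than the rest of that cluster, with medians of 2514 and 1586 UMIs, and the part of depth in this was not tested.

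Side by side, the luminal-like clusters divided the genes. From cluster 1 to cluster 5 of set 3, *Wfdc3* was 12-fold higher (95% interval 10.4 to 13.8) and *Defb1* 5.78-fold higher (95% interval 5.39 to 6.21). Another 3 genes went the other way, with *Wfdc2* 47-fold lower (log2 ratio -5.56, 95% interval -6.14 to -5.03), *Cxcl15* 28.2-fold lower (log2 ratio -4.82, 95% interval -5.78 to -4.01) and *Cxcl17* 51.6-fold lower (log2 ratio -5.69, 95% interval -7.14 to -4.56). Thus 2 of 8 were called higher and 3 lower, where 0.585% and 2.34% of 5640 rows were. By size of the ratio *Wfdc3* ranked 4th and *Defb1* 15th among these rows, *Cxcl17* was the lowest and *Wfdc2* the second lowest. In set 2 *Defb1* was 8.36-fold higher (95% interval 5.95 to 11.7) in cluster 5 and *Wfdc2* 9.04-fold lower (log2 ratio -3.18, 95% interval -4.81 to -1.94), the highest and the lowest of 4532 rows, and *Cxcl17*, with 0 UMIs in cluster 5, was at least 5.36-fold lower. There 1 of 4 genes was called higher and 2 lower, against 0.199% and 0.287% of rows. The call of *Wfdc2* in set 2 was lost with all genes allowed as features and after thinning to 900 UMIs, with log2 ratios of -1.34 and -0.76, and that of *Cxcl17* with -1.57 and 0.78. *Pigr*, *Lcn2* and *Wfdc15b* differed by less than 4-fold between the clusters in set 3, with log2 ratios of -0.77, -1.79 and -1.64. Cluster 5 was the deeper of the pair, with a median of 13589 UMIs in set 3 beside 6029.

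*Wfdc15b*, another WFDC protein, had most of its UMIs in cluster 8 in sets 2 and 3. Its level there was 2564 CPM (2338 to 2804) in set 2 and 2792 CPM (2686 to 2900.5) in set 3, and 25 of 25 and 59 of 61 cells had a UMI. These cells made up 0.467% and 0.73% of the sets and held 91.7% and 92.5% of the UMIs of the gene. Luminal-like cluster 1 had 30.9, 6.02 and 16.6 CPM in sets 1, 2 and 3, and non-epithelial cells had 0.159, 0.724 and 2.01. Against both luminal-like clusters together, cluster 8 was 418-fold higher (95% interval 261 to 711) in set 2 and 217-fold higher (95% interval 178 to 266) in set 3. It ranked second of 4631 and of 5764 rows. In set 1, where cluster 8 was a single cell with 4 UMIs, cluster 6 held 154 of the 249 UMIs of *Wfdc15b* (61.8%, at 31.1 CPM) and cluster 1 held 87 (34.9%).

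*Lcn2* accompanied it in cluster 8 but was spread more widely. In cluster 8 it stood at 1276 CPM (1119 to 1449.6) in set 2 and 2305 CPM (2209 to 2404) in set 3, 46.2-fold higher (95% interval 35.8 to 60.2) and 55.8-fold higher (95% interval 49.7 to 62.9) than in luminal-like cells. *Wfdc15b* and *Lcn2* were the 2 genes called higher in cluster 8 of 5 in set 2 and of 8 in set 3, where 2.38% and 1.89% of all rows were. In set 2 0 were called lower, beside 0.54% of rows. In set 3 the remaining 6 were called lower, as 2.55% of rows were, and *Wfdc3* was the lowest of all 5764. Of these 6, *Wfdc3* and *Defb1* were at least 4-fold lower under every alternative that gave a value. With cells of at least 500 genes the log2 ratios were 4.60 for *Wfdc2*, 0.73 for *Cxcl15*, -0.21 for *Cxcl17* and -0.17 for *Pigr*. The small cluster 9, which was unnamed and led by *Clca3a2* and *Sprr2f*, reached 2403 CPM (2115 to 2719.9) in its 47 cells of set 3 and 687 CPM in its 8 cells of set 2. *Lcn2* was higher in the basal-like clusters than in cluster 1, with 73 and 65.2 CPM in clusters 0 and 2 of set 2 and 166 and 190.5 in set 3, beside 29.7 and 53.9 in cluster 1. In set 1 no cell of clusters 1 and 8 had a UMI of it, and 130 of its 133 UMIs lay in 2 leukocyte-like cells, 94 of them in 1. Both cells had UMIs of the neutrophil genes *S100a8* and *S100a9*, at 67936 and 119102 CPM, beside 375 and 0 in the other leukocyte-like cells of the set.

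**Figure D2:**
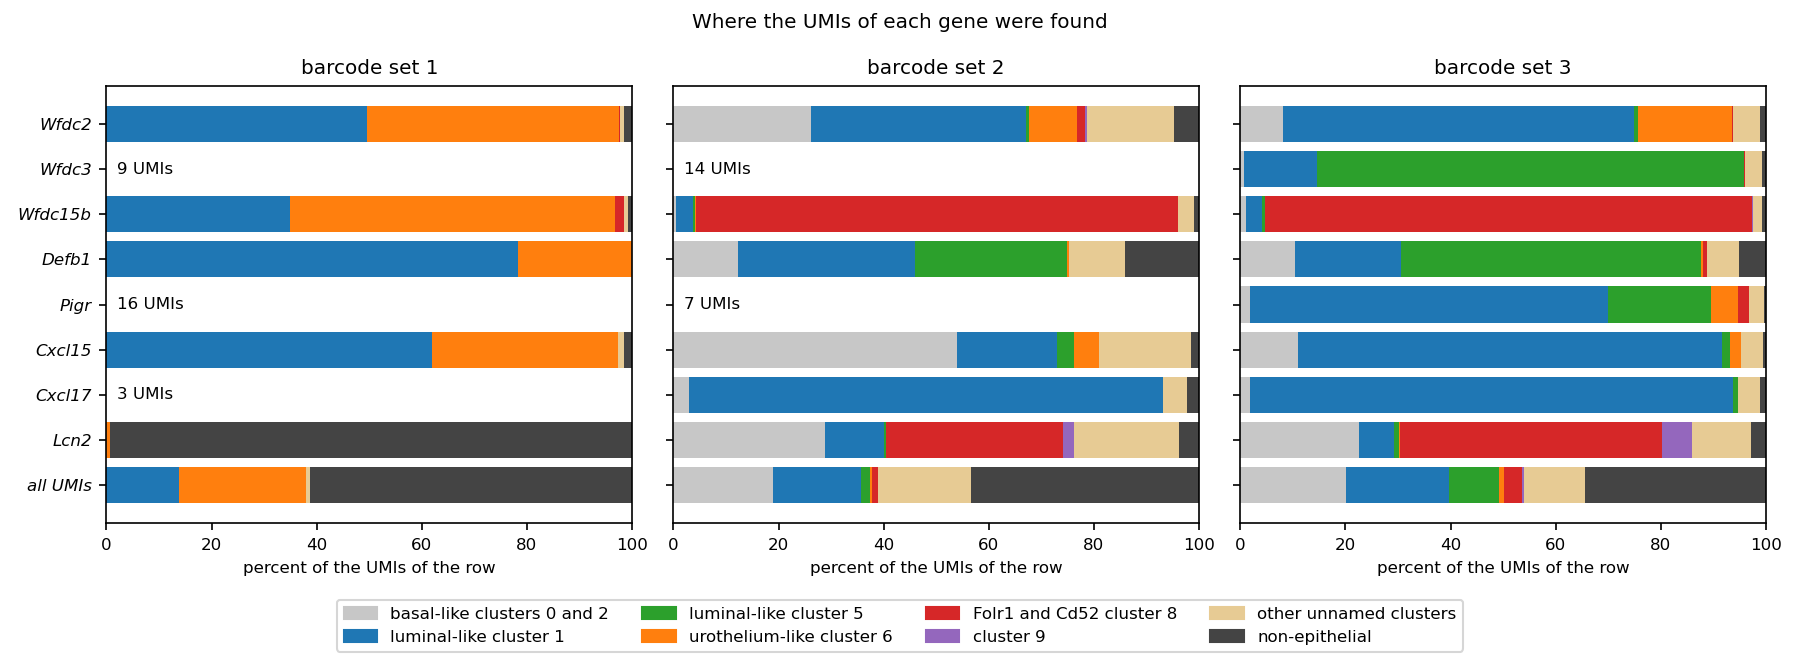
Share of the UMIs of each gene held by each group of cells, as a percentage of all UMIs of the gene in a barcode set. In set 3 cluster 8 holds 92.5% of *Wfdc15b*, cluster 5 holds 81.2% of *Wfdc3* and 57.1% of *Defb1*, and cluster 1 holds 91.8% of *Cxcl17*.

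The receptor and the chemokines had most of their UMIs in cluster 1, except *Cxcl15* in set 2, where cluster 1 held 19% and basal-like cluster 2 held 34.9%. *Pigr* stood at 67.3 CPM (60.6 to 74.6) there in set 3, with a UMI in 26.3% of cells, and at 5.32 and 2.63 CPM in sets 1 and 2. Cluster 5 of set 3 had 39.5 CPM (32.3 to 47.9), and non-epithelial cells of that set had 2 UMIs in all (0.212 CPM). A level of 117 CPM in cluster 6 of set 3 rested on 27 UMIs in 3 of 31 cells. *Pigr* was seen mainly in set 3, in both luminal-like clusters.

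*Cxcl15*, a chemokine of lung and endometrial epithelium, was found in cluster 1 at 177 CPM (162 to 194) in set 1, 4.51 CPM (2.33 to 7.88) in set 2 and 129 CPM (119 to 139) in set 3. The share of cells of cluster 1 with a UMI was 82%, 3.87% and 40.1%, at median depths of 50249, 8908 and 6029 UMIs. Thinned to 900 UMIs these shares were 4% (0.488 to 13.7), 0.709% (0.086 to 2.54) and 10.4% (8.03 to 13.1), where the intervals of sets 1 and 3 overlap. The low value of set 2 lay below the 13.9 and 10.2 CPM of its basal-like clusters 0 and 2, whereas the 14.2 and 20.1 CPM of these clusters in set 3 lay under cluster 1. Cluster 6 had 57.7 CPM in set 1 and 77.8 in set 3, and cluster 5 had 4.56 in set 3.

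*Cxcl17*, a mucosal chemokine, had a larger share of its UMIs in cluster 1 of set 3 than *Cxcl15* (80.7%), *Pigr* (68.1%) or *Wfdc2* (66.7%). Its level was 58.7 CPM (49.8 to 68.6) in set 2 and 118 CPM (109 to 127) in set 3, and 90.2% and 91.8% of its UMIs lay in cluster 1. In set 1 cluster 1 had 3 UMIs of *Cxcl17*, at 1.06 CPM (0.219 to 3.11). The urothelium-like cluster 6 had 0 UMIs of it in every set, although it was rich in *Wfdc2*, and 0 of 31 cells in set 3 allows a share of cells with a UMI of up to 9.68%. Non-epithelial cells of sets 2 and 3 had 0.579 and 0.848 CPM.

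Between the named classes the counts were as follows. In luminal-like against basal-like cells, 3 of 6 genes were called higher in set 2, where 2.25% of 5375 rows were, and 6 of 8 in set 3, where 5.43% of 6189 were. The median log2 ratio of the genes was 1.55 in set 2 and 2.43 in set 3, beside -0.05 and 0.12 over all rows. *Defb1* and *Cxcl17* were called in both sets, with *Cxcl17* 32.2-fold higher (95% interval 13.5 to 101) in set 2 and 33.6-fold higher (95% interval 19.5 to 63.5) in set 3. *Wfdc3* was 92.7-fold higher (95% interval 52.9 to 179.9) in set 3, the first of all rows. *Pigr* was 31.9-fold higher (95% interval 17.2 to 67) and *Wfdc2* 5.65-fold higher (95% interval 5.05 to 6.34) in that set, but in set 2 *Wfdc2* had a log2 ratio of only 0.71. *Lcn2* was 4.32-fold lower (log2 ratio -2.11, 95% interval -2.30 to -1.93) in luminal-like cells of set 3, where 3.38% of rows were called lower, and had a log2 ratio of -1.29 in set 2. *Cxcl15* had a log2 ratio of -1.23 in set 2 and was 5.13-fold higher (95% interval 4.13 to 6.43) in set 3. The ratios of *Wfdc2* and *Cxcl15* were thus larger in set 3 than in set 2. *Wfdc15b* was 6.19-fold higher (95% interval 1.81 to 32.8) in set 2 and had a log2 ratio of 1.29 in set 3. The ratio of *Wfdc15b* in set 2 rested on 18 UMIs of luminal-like cells. With cells of at least 500 genes, which left 292 luminal-like cells in set 3, the log2 ratios of *Wfdc2*, *Cxcl15* and *Cxcl17* were -1.42, -0.83 and 0.40 there, while *Wfdc3*, *Pigr* and *Defb1* were still called. With cluster 8 counted as luminal, those of *Lcn2* were 0.60 and 0.65 in sets 2 and 3 and those of *Wfdc15b* 7.32 and 5.85, so that the low ratio of *Wfdc15b* depends on leaving that cluster out. With classes from clusters of all cells *Defb1* and *Wfdc15b* of set 2 lost their calls, at 1.69 and 1.33. The count of genes called higher in set 2 was 1 at resolution 1.0, with classes from clusters of all cells and with that filter. In set 3 that filter gave 3. The luminal-like class pools clusters 1 and 5, which differed. Their log2 ratios over basal-like cells of set 3 were 3.06 and -2.50 for *Wfdc2* and 2.91 and -1.91 for *Cxcl15*. *Wfdc3* (4.33 and 7.91) and *Pigr* (5.21 and 4.44) were high in both. *Defb1* had 0.98 and 3.51 there and 1.63 and 4.70 in set 2, short of 4-fold in cluster 1 of both sets.

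In luminal-like against urothelium-like cells, 1 of 4 genes was called higher in set 1 and 3 of 8 in set 3, with 1.87% and 0.948% of all rows. Called lower were 0 in set 1 and 1 in set 3, with 6.16% and 8.71% of all rows. *Defb1* was the gene of set 1, at 6.38-fold higher (95% interval 2.84 to 16.1), from 29 and 8 UMIs, with a log2 ratio of 1.69 when classes came from clusters of all cells. In set 3 *Defb1* was 6.24-fold higher (95% interval 3.99 to 10.4), *Cxcl17* at least 6.15-fold higher and *Wfdc3* at least 15.6-fold higher. *Wfdc2* was 9.16-fold lower (log2 ratio -3.20, 95% interval -3.31 to -3.08) in luminal-like cells of set 3, but in set 1 its log2 ratio was 0.87. As given above, the uroplakin *Upk1a* did not separate the classes in set 1, and the urothelium-like side had 31 cells in set 3. The count called higher in set 3 was 1 when cells were classed one by one or thinned to 900 UMIs. With cells classed one by one the log2 ratios of *Wfdc2*, *Wfdc3* and *Defb1* in set 3 were -0.12, 0.07 and -0.036, and that of *Cxcl17* was 0.21 with cells of at least 500 genes.

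Finer clustering of the same cells, at a resolution of 1 in place of 0.5, split cluster 1 and set its genes further apart. Most of it fell into finer clusters 4, 5 and 12, with 440, 374 and 101 cells, while finer cluster 7 held all of cluster 5. Finer cluster 4 was led by *Upk3bl* and *Hopx* among others, and finer cluster 12 by *Cyp2f2* and *Nupr1*. By the rule used for naming, finer clusters 4 and 12 were unnamed. They carried 7 luminal markers each, beside 4 and 3 of urothelium. Their 10 leading genes held the urothelium marker *Upk3bl* and no luminal marker. Finer clusters 5 and 7 were luminal-like. *Wfdc2* reached 3364 CPM (3213 to 3519.7) in the 89 cells of finer cluster 12 in set 3, all of which had a UMI, and 93.3% (85.9 to 97.5) of them still had one after thinning to 900 UMIs. The same 89 cells had *Cxcl17* at 707 CPM (639 to 781), *Cxcl15* at 401 CPM (350.4 to 458) and *Pigr* at 270.0 CPM (228 to 317). Relative to finer cluster 4 of set 3, *Wfdc2* was 16.5-fold higher (95% interval 15.1 to 18.1), *Cxcl17* 12.1-fold higher (95% interval 10.2 to 14.5) and *Pigr* 5.28-fold higher (95% interval 4.2 to 6.63). These 3 of 8 were called higher, beside 1.1% of 4900 rows, and 0 lower, beside 0.163%, and *Wfdc2* ranked number 3 among the rows. *Cxcl15* was 3.29-fold higher (95% interval 2.77 to 3.88), short of a call.

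Finer cluster 12 of set 2, with 8 cells, had *Wfdc2* at 2744 CPM (2192 to 3393) and *Cxcl17* at 323 CPM (155 to 594), and its 4 cells of set 1 had 783 and 0 CPM. The high cells of *Cxcl17* were thus present in sets 2 and 3 and not seen in set 1. *Wfdc3* was low in finer cluster 12 of set 3 (9 CPM), higher in finer clusters 4 and 5 (29 and 126 CPM) and highest in finer cluster 7 (462 CPM).

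**Figure D3:**
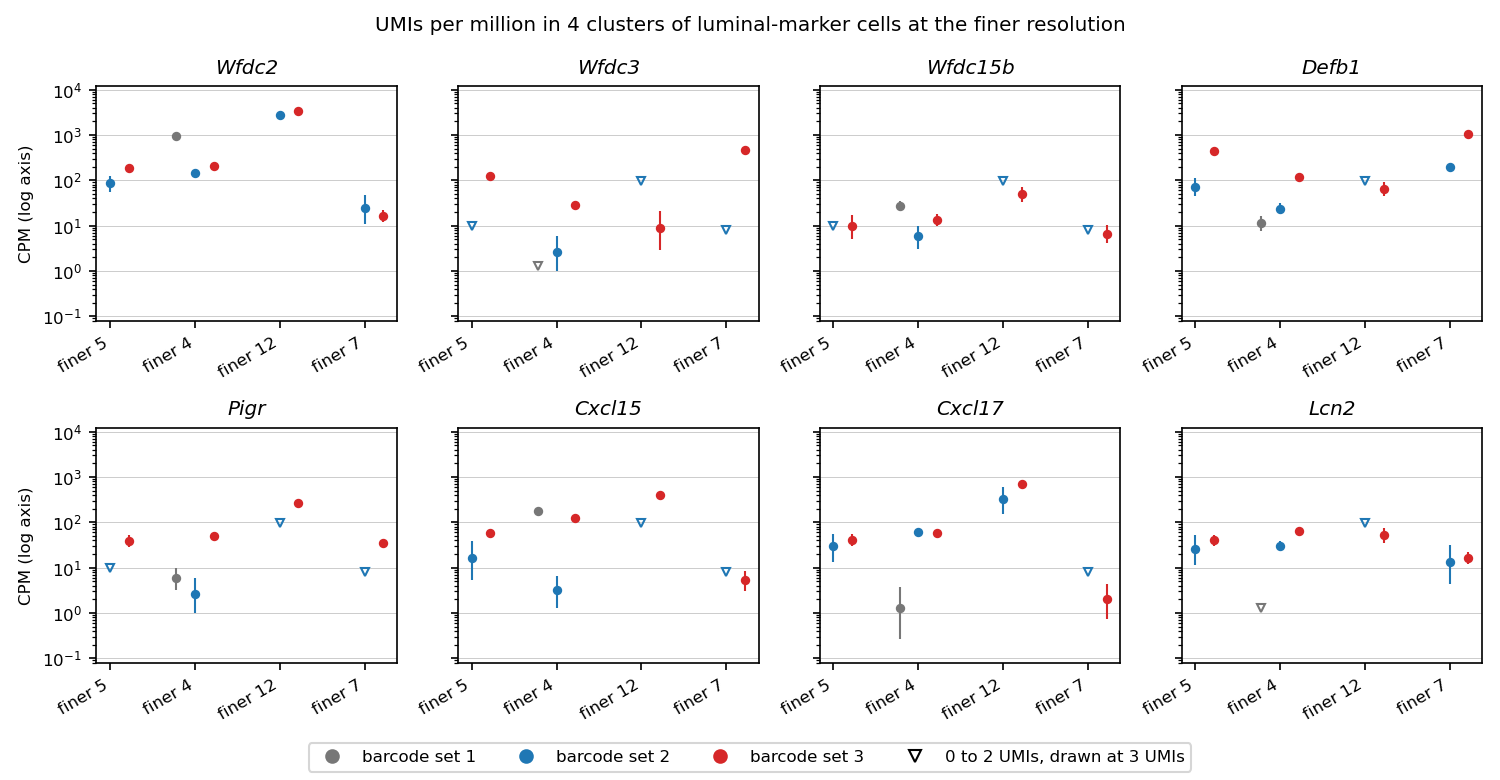
Level of each gene in finer clusters 4, 5, 7 and 12 by barcode set, as CPM on a log axis, with bars for exact 95% Poisson intervals. *Wfdc2*, *Cxcl17*, *Cxcl15* and *Pigr* of set 3 are highest in finer cluster 12, and *Wfdc3* and *Defb1* in finer cluster 7.

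Single cells of cluster 1 showed the same division in set 3. Among the 599 cells of set 3 with at least 900 UMIs, thinned to that depth, *Wfdc2* and *Cxcl17* were found together in 50 cells, where the product of their shares gives 15.3, and 75.8% of the cells with *Cxcl17* also had *Wfdc2*. *Wfdc2* with *Cxcl15* was found in 35 cells against 14.4, and *Cxcl15* with *Cxcl17* in 24 against 6.83. *Pigr* was found with *Wfdc2* in 25 cells against 9.51. The other pairing was *Wfdc3* with *Defb1*, in 15 cells against 3.21, which is 75% of the cells with *Wfdc3*. Across the pairings the counts lay below the product. *Defb1* was found with *Wfdc2* in 7 cells against 22.3 and with *Cxcl17* in 1 against 10.6, and *Wfdc2* with *Wfdc3* in 0 against 4.64. In set 1 *Defb1* and *Cxcl15* were not set apart, with both in 14 of 50 cells of cluster 1 against 11.5, on all UMIs. Each count is of cells of 1 library and is given without a test.

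Inside cluster 5 of set 3 *Wfdc3* and *Defb1* were found together in 46 of 171 cells, where the product gives 39.3, and in cluster 8 of set 3 *Wfdc15b* and *Lcn2* in 34 of 61 against 33.2. In cluster 8 the pair was thus close to the product. In cluster 5 *Defb1* was found in 78% of the cells with *Wfdc3* and in 60.7% of those without it. *Wfdc2* was unevenly held in cluster 1 of set 3, where 76.8% of its thinned UMIs lay in 60 of the 599 cells and the variance over cells was 5.71 times the mean. For *Defb1* in cluster 5, 18 of 171 cells held 35.8%. In cluster 1 of set 2, with 282 cells thinned, *Wfdc2* and *Cxcl17* shared 6 cells.

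**Figure D4:**
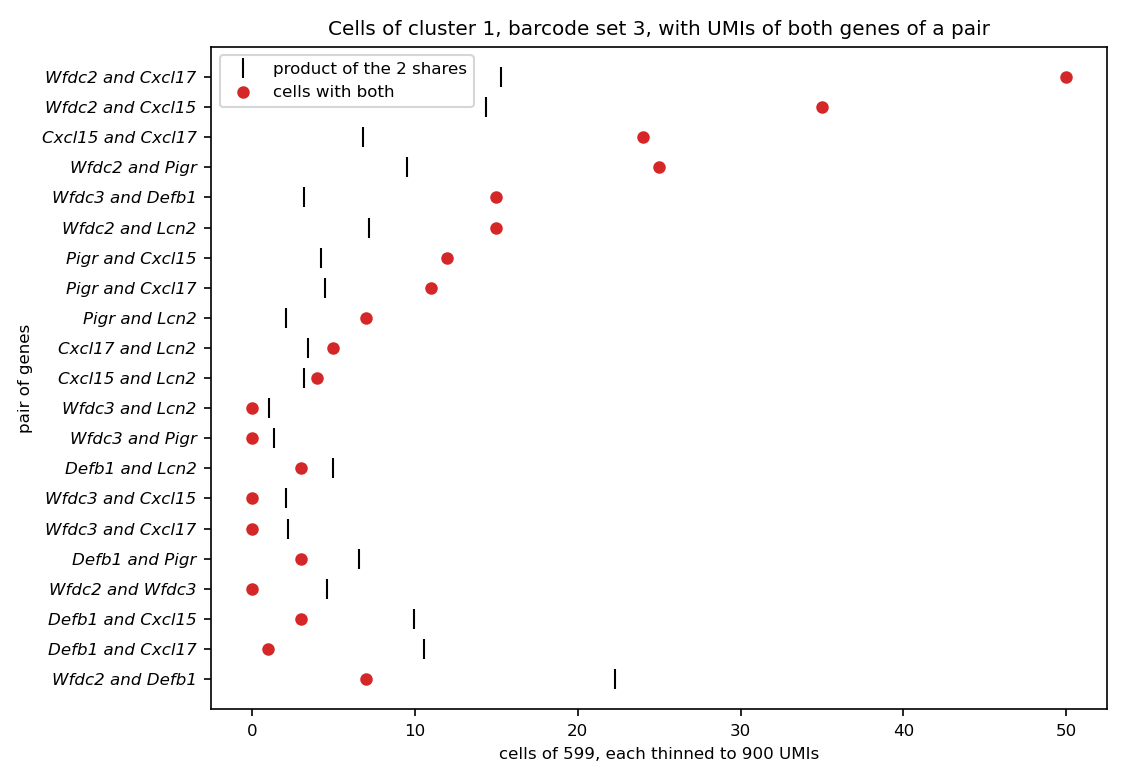
Cells of cluster 1 in set 3 with UMIs of both genes of a pair after thinning to 900 UMIs, beside the number that the product of the single shares gives. Pairs among *Wfdc2*, *Cxcl15*, *Cxcl17* and *Pigr*, and *Wfdc3* with *Defb1*, lie above the product, and pairs of *Defb1* with *Wfdc2*, *Cxcl15* or *Cxcl17* below it.

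The genes with the most similar levels were sought over the 42 groups of 1 cluster and 1 set with at least 20 cells. These include clusters of non-epithelial cells, so that r also takes in the difference between epithelium and other cells. Pearson's r of log2(CPM + 5) was used without a p, as groups of 1 set share a library and differ in depth. Among the 8 themselves, r was 0.86 for *Wfdc2* with *Cxcl15*, 0.70 for *Wfdc3* with *Defb1* and 0.65 for *Wfdc15b* with *Lcn2*. It was 0.07 for the neighbours *Wfdc2* and *Wfdc3*. *Pigr* had 0.64 with *Defb1*, 0.59 with *Wfdc3* and *Cxcl15* and 0.54 with *Wfdc2*. *Cxcl17* had 0.43 with *Defb1*, 0.39 with *Cxcl15* and 0.36 with *Wfdc2*. Other rows closest to *Wfdc2* were *Elf3* (r = 0.87), *Epha1* (0.85) and *2200002D01Rik* (0.85), and those closest to *Wfdc3* were *Nlrp10* (r = 0.89), *Tcaf2* (0.70) and *Acrbp* (0.67). *Elf3* encodes an ETS factor of epithelia and was also among the markers used for naming. *Wfdc15b* was closest to *Folr1* (r = 0.86), *Elf5* (0.86) and *Sprr2f* (0.83), all of which are among the 10 leading genes of cluster 8, and *Folr1* encodes a folate receptor. *Defb1* was closest to *Prr9* (r = 0.77), *Timp4* (0.74) and *Rpl10* (0.73), and *Pigr* to *Arl14* (r = 0.79), *Vtcn1* (0.78) and *Trex2* (0.73). For *Cxcl15* the rows were *Cers3* (r = 0.89), *Aim1l* (0.83) and *Bnipl* (0.82), for *Cxcl17* *Tstd1* (r = 0.73), *Cyp2f2* (0.68) and *Anpep* (0.66), and for *Lcn2* *Depdc7* (r = 0.80), *2310001H17Rik* (0.78) and *Clca3a2* (0.78).

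Other defence genes were taken from lists of related families. Of 6 further rows of the WFDC gene cluster, 3 further beta-defensins, 4 of immunoglobulin transport, 5 lipocalins and iron binding proteins and 2 prostate secretions, none was called higher or lower between luminal-like and basal-like cells of sets 2 and 3, and at most 1 of each list had enough UMIs. Of 11 further chemokines and receptors of glands, 6 had enough in set 3 and 4 of these were higher in luminal-like cells (*Cxcl5*, *Cxcl3*, *Cxcl2* and *Cxcl13*), while 0 of 3 were called in set 2. In cluster 1 of set 3 *Cxcl2* stood at 104 CPM, *Cxcl5* at 12.1, *Cxcl3* at 5.59 and *Cxcl13* at 1.86, beside 15.3, 0.363, 0.363 and 0 in basal-like cluster 0. Non-epithelial cells of set 3 had more of *Cxcl2* (407 CPM), *Cxcl3* (29.3) and *Cxcl13* (20), while *Cxcl5* was not called lower in epithelium-like cells. In epithelium-like over non-epithelial cells of that set, 0 of the 8 chemokines and receptors with enough UMIs were called higher and 7 lower, beside 16.1% of rows called lower. Of 17 other mucosal effectors, 5 had enough in each set. In set 3, 4 of these were higher (*Cd55*, *Plac8*, *Reg3g* and *Pglyrp1*) and 1, *Lbp*, was lower, and in set 2 *Plac8* was higher and *Lbp* lower. *Lbp*, which binds bacterial lipopolysaccharide, had 16.3 CPM in cluster 0 of set 3 and 2.05 in cluster 1. These counts stand beside the 2.25% and 5.43% called higher and the 1.47% and 3.38% called lower over all rows of sets 2 and 3.

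*Plac8*, which takes part in microbial killing by myeloid cells, followed cluster 8 and cluster 5, with 1196 and 671 CPM in cluster 8 of sets 2 and 3, 94.9 and 359 in cluster 5 and 19.9 and 77 in cluster 1. *Pglyrp1*, which binds bacterial peptidoglycan, had 285 and 272 CPM in cluster 8 beside 27.8 and 26.7 in cluster 1. High levels of *Plac8* and *Pglyrp1* in cluster 8 thus stood beside those of *Wfdc15b* and *Lcn2* in both sets. Of the other members, *Defb1* and *Pigr* had 0 UMIs in the 25 cells of set 2 and 39 and 11 in the 61 cells of set 3, at 41.5 and 11.7 CPM. *Reg3g*, a lectin that kills bacteria, had 12.4, 7.52 and 61 CPM in cluster 1 of sets 1, 2 and 3.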

How the data were processed

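Libraries of 3 mouse tissues were made after dissociation with collagenase and TrypLE. The labels and the methods of the study name different versions of the 3′ kit. UMIs were counted with Cell Ranger 3.1.0 on mm10 with added transgene sequences, and the methods state that cells with much mitochondrial RNA, multiplets and empty droplets were filtered. The study's number of cells for the E18.5 tissue equals the 766 of set 1, while those for P14 and P35 differ from sets 2 and 3. No set was assigned to an age from this, as the labels hold no key. The deposited values are on a natural log scale (ln of 1 plus 10000 times UMIs over the cell's total), while the design had assumed counts, and the authors' UMI counts were recovered from them. All 11120281 values above 0 gave whole UMIs within 0.05. Of 9784 gene rows, 1 filled for 7365 cells and 2 sharing a name were left out. The table was held in part, so other genes were not analysed here. All 14573 cell columns name no sample and were used as pooled.

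Clusters were found in Seurat 5.3.0 (R 4.3.3, Matrix 1.6.5) by the stated steps, with 2000 features, 20 integration dimensions, 30 principal components, 27 S and 33 G2M genes regressed and resolution 0.5, without the members and list genes (53 with a row). A cluster carried a marker with UMIs in at least 10% of cells and at least 2 times the median cluster's level. It was named with at least 3 carried markers, more than for any other class. It was left unnamed where another class had more markers among its 10 leading genes. This scoring was set after the clusters were seen. Members, lists and markers were chosen with earlier results of these data known. Genes named are the members, the 3 rows most like each, markers, and list genes that were called or had the most UMIs. Python 3.11.15, numpy 2.4.6 and scipy 1.17.1 gave exact Poisson, Clopper-Pearson and binomial-split intervals, for counting error only. Sums of 0 to 2 UMIs entered ratios as 3. No p-value was computed, as each group had 1 library. Free RNA was not removed. Scrublet in scanpy 1.11.5 put 3 cells of set 1 and 0 of the others over its automatic threshold, and no cell was removed. The steps were tested on simulated data.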

Additional observations from a re-analysis of the deposited data

How the results depend on the processing

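Under 13 alternatives, 86 counts and 737 log2 ratios were recomputed. Of the counts 74 were within 1.5 times the reported one. Of the ratios 528 lay within the counting interval of the reported value, 198 lay outside it and 11 were called ratios that changed sign. Over all ratios, called or not, 694 of 737 kept their sign. Of 52 ratios of at least 4-fold, 506 of 559 recomputed values were still that large. The ratio of *Wfdc15b* of cluster 8 over luminal-like cells ranged over 7.97 to 8.87 in set 2 and 7.34 to 8.53 in set 3 (log2), and that of *Lcn2* over 5.05 to 6.53 and 5.17 to 6.62. For cluster 5 over cluster 1 in set 3 the ranges were 2.60 to 4.94 for *Wfdc3*, 2.08 to 3.14 for *Defb1*, -6.21 to -2.74 for *Wfdc2* and -6.77 to -3.21 for *Cxcl17*.

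The count of genes higher in luminal-like than in basal-like cells of set 2 was 1 in place of 3 at resolution 1.0, with classes from clusters of all cells, and with cells of at least 500 genes. That filter gave 3 in place of 6 in set 3 and turned the log2 ratios of *Wfdc2* to -1.42 and of *Cxcl15* to -0.83, and lowered that of *Cxcl17* from 5.07 to 0.40. It also gave 4.60 for *Wfdc2*, 0.73 for *Cxcl15*, -0.21 for *Cxcl17* and -0.17 for *Pigr* in cluster 8 over luminal-like cells of set 3, where the matched cluster had 170 cells in place of 87. With all genes allowed as features (260 cells) *Wfdc2* gave 2.85, *Cxcl15* -0.79 and *Pigr* -0.17, and after thinning *Cxcl15*, *Cxcl17* and *Pigr* gave -1.13, -1.39 and -0.56. Thinning to 900 UMIs lowered the count for epithelium-like over non-epithelial cells to 1 in set 1 and 3 in set 2, and for luminal-like over urothelium-like cells to 0 and 1 in sets 1 and 3. Genes with enough UMIs were then 2 in place of 5 and 4 in place of 6 in the former, and 1 in place of 4 and 7 in place of 8 in the latter, where *Wfdc3* and *Cxcl17* of set 3 fell under 4-fold. It gave a log2 ratio of 0.78 for *Cxcl17* in cluster 5 over cluster 1 of set 2, where the UMIs are at the floor, and -0.76 for *Wfdc2*, which gave -1.34 with all genes as features. *Cxcl17* in luminal-like over urothelium-like cells of set 3 gave 0.029 at resolution 1.0, 0.21 with cells of at least 500 genes and 0.41 thinned. A fold of 2 gave 2 genes over urothelium-like cells in set 1. Classing cells one by one gave 2 for epithelium-like cells of set 1 and 1 over urothelium-like cells of set 3. It put *Wfdc15b* at -2.35 and -1.48 and *Lcn2* at -0.25 for epithelium-like over non-epithelial cells (sets 2 and 3 for *Wfdc15b*, set 3 for *Lcn2*), and *Defb1* at -0.036 over urothelium-like cells of set 3. Counting cluster 8 as luminal, an alternative chosen after seeing the data like those of the ratios between clusters, gave 5 genes over urothelium-like cells of set 3 and a log2 ratio of 0.65 for *Lcn2* over basal-like cells. Beyond these constructions the cause of each change was not tested. Luminal-like over urothelium-like had under 20 cells on a side, and so no value, in set 1 under several settings and in set 3 with clusters of all cells.

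Depth limits low levels in sets 2 and 3, whose median cells held 1738 and 1788 UMIs, and cluster 5 of set 2 and cluster 6 of set 3 rest on 26 and 31 cells. No paired analysis was possible because the labels give a single sample for each tissue.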

Other observations

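*Clca1*, a secreted protein of mucous epithelium, stood at 607 CPM in cluster 1 of set 1, beside 28.6 in cluster 6 of that set and 5.27 and 2.61 in cluster 1 of sets 2 and 3. *Cd55*, which shields cells from complement, had 146, 12.4 and 80.6 CPM in cluster 1 of sets 1, 2 and 3. *Slpi*, an antiprotease of the WFDC gene cluster that lies between *Wfdc15b* and *Wfdc2*, had 14.5, 3.01 and 0.373 CPM in cluster 1 of the same sets and 43.1 and 17 in cluster 8 of sets 2 and 3. Like *Wfdc15b* and unlike *Wfdc2*, it was higher in cluster 8 than in cluster 1 of these sets. That rested on 8 and 16 UMIs in cluster 8 and 8 and 2 in cluster 1, under the minimum for a call.

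Some defence genes of the lists were mainly outside the epithelium. *Cxcl10*, an interferon-induced chemokine, had 184, 306 and 714 CPM in non-epithelial cells of sets 1, 2 and 3 and 5.32, 103 and 184 in cluster 1. *Fcgrt*, the neonatal receptor that carries IgG, had 104, 76.1 and 108 CPM in non-epithelial cells and 4.26, 5.27 and 11.9 in cluster 1, the opposite of *Pigr*.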
